A study of Saccharomyces cerevisiae with 6 samples.

Results

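Divergent promoter intervals are the stretches of DNA between neighbouring genes that are transcribed away from each other, so that 1 interval carries the promoters of both genes. They were chosen by annotation alone: intergenic intervals of 200 to 3000 bp whose left gene lies on the minus strand and whose right gene lies on the plus strand, over 30 kb from a chromosome end, on every nuclear chromosome of budding yeast except XII, which carries the ribosomal DNA (rDNA). By the R64 gene annotation, 1104 intervals met this rule, of 6179 intergenic intervals outside the rDNA. They covered 660.569 kb and had a median length of 502.5 bp. Of 1409 divergent intervals in all, 126 lay on chromosome XII, 83 others lay within 30 kb of an end, and of the rest 91 were under 200 bp and 5 over 3000 bp.

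Binding of a FLAG-tagged protein was measured by chromatin immunoprecipitation and sequencing (ChIP-seq) with the anti-FLAG M2 antibody in 3 rpd3Δ and 3 WT samples of Saccharomyces cerevisiae. The rpd3Δ samples were of strain YHy17, which lacks the histone deacetylase gene RPD3, and the WT samples of strain OAy1102. All 6 cultures grew at 23 °C and were arrested in G1 by about 4 h of α-factor, a mating pheromone. Which protein carried the tag is not in the labels, while the series title names Rpd3, Fkh1 (a forkhead protein) and replication origins. The question for these intervals was therefore whether the tagged protein's signal at shared promoters changes without Rpd3.

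BAR1, the gene of a protease that breaks down α-factor, had 0 counts in every one of the 6 samples, so its absence was shared by both genotypes. RPD3 had 0.0769, 0.110 and 0.119 times the mean bin in the rpd3Δ samples, against 0.911, 0.759 and 0.943 in the WT samples. Summed bin counts ran from 4888453 to 6785491 in rpd3Δ and from 3987250 to 5907739 in WT. The rDNA took 56.0% to 64% of them in rpd3Δ and 37.1% to 49.7% in WT, and the median 50 bp bin elsewhere held 7 to 9 counts in rpd3Δ and 7 to 12 in WT. The labels do not say whether samples of 1 genotype are separate cultures, so p-values reflect only how far these samples spread, and that spread may be technical. In a bulk sample, fewer cells with bound protein and less bound protein per cell cannot be told apart.

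In yeast, divergent promoters usually hold a nucleosome-depleted region between the start sites of both genes, where transcription factors bind and from which RNA polymerase II can set off in both directions. Rpd3 removes acetyl groups from histone tails and is brought to promoters by DNA-binding repressors such as Ume6. Fkh1 is a forkhead transcription factor that binds promoters of cell-cycle genes and a group of replication origins. In convergent intervals both flanking genes end, and in tandem intervals 1 gene ends and the next begins, so convergent intervals hold no promoter and tandem intervals hold 1.

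Most divergent intervals had a signal close to that of the sequence around them, and a minority stood well above it. Signal is given here as the mean count per bin of an interval divided by its local background, which is the mean of the surrounding 20 kb without bins over 2 times their median and without the interval itself. The median over the 1104 intervals, averaged over the 6 samples, was 1.15 times local background, with a 10th percentile of 0.796, a 25th of 0.958, a 75th of 1.52, a 90th of 2.25 and a maximum of 20.9. At least 2 times local background was reached by 144 intervals (13.0%), at least 4 times by 32 (2.90%) and at least 6 times by 13, while 13 intervals lay under 0.5 times. Under the same limits, 12.9% of tandem and 10.3% of convergent intervals reached at least 2 times, and 2.77% and 1.79% at least 4 times. The divergent shares thus lay close to the tandem ones. The 144 intervals held 33.5% of the signal of all divergent intervals on 15.7% of their length. Across the 1104 intervals, which are not independent replicates and share libraries, the Spearman correlation of scaled counts between samples ran from 0.783 to 0.873.

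**Figure D1:**
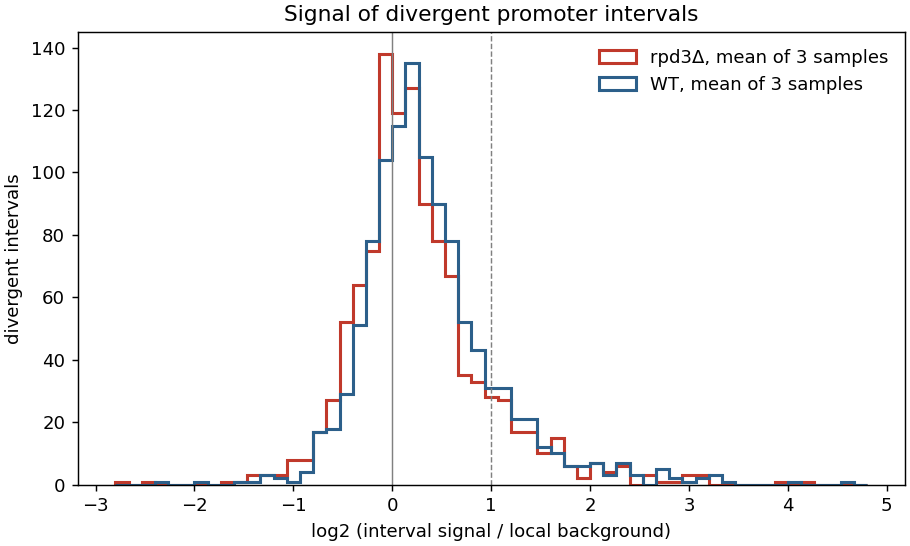
Number of divergent intervals (y axis) by log2 of interval signal over local background (x axis) for the mean of the 3 rpd3Δ and of the 3 WT samples; the solid line marks a ratio of 1 and the dashed line a ratio of 2, and VID28/SNL1, with 0 counts, is not drawn. Both genotypes peak near 1 and trail to the right, where 144 intervals lie at 2 or more by the mean of all samples.

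The highest interval was that between TEM1, the GTPase that starts the mitotic exit network, and RPS1B, a protein of the small ribosomal subunit (TEM1/RPS1B, chromosome XIII, 145877 to 146481). It had 167, 118 and 102 scaled counts per bin in the rpd3Δ samples, against 172, 185 and 124 in the WT samples. The genotypes overlapped, with rpd3Δ sample 1 below WT samples 1 and 2 and above WT sample 3. Over local background this was 18.5 ± 6.25 times in rpd3Δ and 23.2 ± 5.60 times in WT (SD, n = 3 each), and the log2 fold change was -0.31 (edgeR quasi-likelihood adjusted p = 0.526). The highest bin lay 149 bp from the TEM1 start codon and 456 bp from that of RPS1B.

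Next came the interval between IDI1, an isomerase of the sterol and isoprenoid pathway, and HOS3, another histone deacetylase (IDI1/HOS3, chromosome XVI, 328731 to 329605). It had 169, 111 and 88.0 scaled counts per bin in the rpd3Δ samples, against 144, 152 and 107 in the WT samples, again overlapping. Its log2 fold change was -0.13 (edgeR quasi-likelihood adjusted p = 0.859). Its highest bin lay 595 bp from the IDI1 start and 280 bp from the HOS3 start, and the side next to HOS3 had 164 ± 56.1 scaled counts per bin in rpd3Δ and 181 ± 34.3 in WT, more than the side next to IDI1, with 75.8 ± 25.3 in rpd3Δ and 83.0 ± 12.7 in WT (SD, n = 3 each).

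The other 8 of the 10 highest intervals stood between genes of many kinds. ALG5/NEW1, between a glycosylation enzyme gene and a translation factor gene, had 8.99 ± 3.01 times local background in rpd3Δ and 10.3 ± 1.27 in WT (SD, n = 3 each). TMN2/TRS85, beside the gene of a vesicle tethering subunit (TRS85), had 9.13 ± 3.60 in rpd3Δ and 9.35 ± 1.95 in WT. RPS22A/RPL39, between genes of both ribosomal subunits, had 8.70 ± 1.82 in rpd3Δ and 9.16 ± 2.29 in WT. YBL086C/BOI1 (8.19 in rpd3Δ, 9.08 in WT), YBR138C/ATG42 (7.82 and 9.33), UTP4/YCG1 (7.64 and 9.19), DYN1/RHO4 (6.09 and 7.88) and PXP2/NNF1 (7.39 and 6.59) completed the set. YCG1 encodes a condensin subunit, DYN1 the heavy chain of dynein and NNF1 a kinetochore protein. Their lengths ran from 234 to 1273 bp.

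None of these 10 intervals passed the test between genotypes. The log2 fold changes ran from -0.36 at DYN1/RHO4 to 0.13 at TMN2/TRS85, 8 of them negative and 2 positive, and the smallest edgeR adjusted p was 0.319; at an unadjusted p under 0.05 there was 1 (DYN1/RHO4), and DESeq2 called 0. All 10 overlapped between genotypes. The spread within a genotype followed the same samples each time: rpd3Δ sample 1 was the highest and sample 3 the lowest of the rpd3Δ samples at 10 of 10 intervals, and WT sample 3 the lowest of the WT samples at 10 of 10. The part of depth or of the rDNA share in this order was not tested.

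At the other end lay intervals with less signal than their surroundings, which were chosen after their values were seen. GCD10/NOP2, between genes of a tRNA and an rRNA methyltransferase, had 0.145 ± 0.0406 times local background in rpd3Δ and 0.200 ± 0.0249 in WT (SD, n = 3 each). BIK1/RNQ1 had 0.187 ± 0.125 in rpd3Δ and 0.335 ± 0.167 in WT, and TYS1/TFG1, between genes of a tyrosyl-tRNA synthetase and a transcription initiation factor subunit, had 0.312 ± 0.0731 in rpd3Δ and 0.274 ± 0.108 in WT. VID28/SNL1 (chromosome IX, 320966 to 321453), beside BAR1, had 0 counts in all 6 samples and was the 1 interval that did not reach a mean of 10 counts, leaving 1103 tested. The 500 bp beyond its SNL1 edge, towards BAR1, also had 0 in all 6 samples, while the 500 bp on the VID28 side had 14.7, 15.3 and 14.1 scaled counts per bin in the rpd3Δ samples, against 17.3, 23.1 and 16.1 in the WT samples. For the other low intervals, without an input library, poor coverage and little binding cannot be told apart.

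The signal was not spread evenly within the intervals. Averaged over all 1104, signal over local background had its highest values mid-interval, 1.44 ± 0.219 in rpd3Δ and 1.58 ± 0.153 in WT (SD of 3 sample means), and 500 bp beyond the interval edges it was 1.07 ± 0.0276 on the left and 1.11 ± 0.0281 on the right in rpd3Δ, against 1.12 ± 0.0112 and 1.14 ± 0.0147 in WT. The 144 high intervals reached 3.76 ± 1.01 in rpd3Δ and 4.22 ± 0.710 in WT at the middle. Among the 960 intervals under 2 times local background the same position had 1.09 ± 0.0961 in rpd3Δ and 1.18 ± 0.0701 in WT.

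The high intervals also differed from the others in where their highest bin lay, a description with no test because the level is measured from the same counts. The highest bin fell in the middle one of 3 equal sections in 57 of the 144 high intervals (39.6%) and in 251 of the 960 others (26.1%). Its median distance to the nearer start codon was 158.5 bp in high intervals and 93 bp in the others. The 500 bp beyond the interval edges, which run past the end of the flanking gene on 290 of 2208 sides, had a median of 1.56 times local background beside high intervals and 1.02 times beside the others, and the flanks were lower than the interval itself at 137 of 144 and 600 of 960. Flanks and intervals share reads, because reads spanning the edge of a bin were counted on both sides of it.

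**Figure D2:**
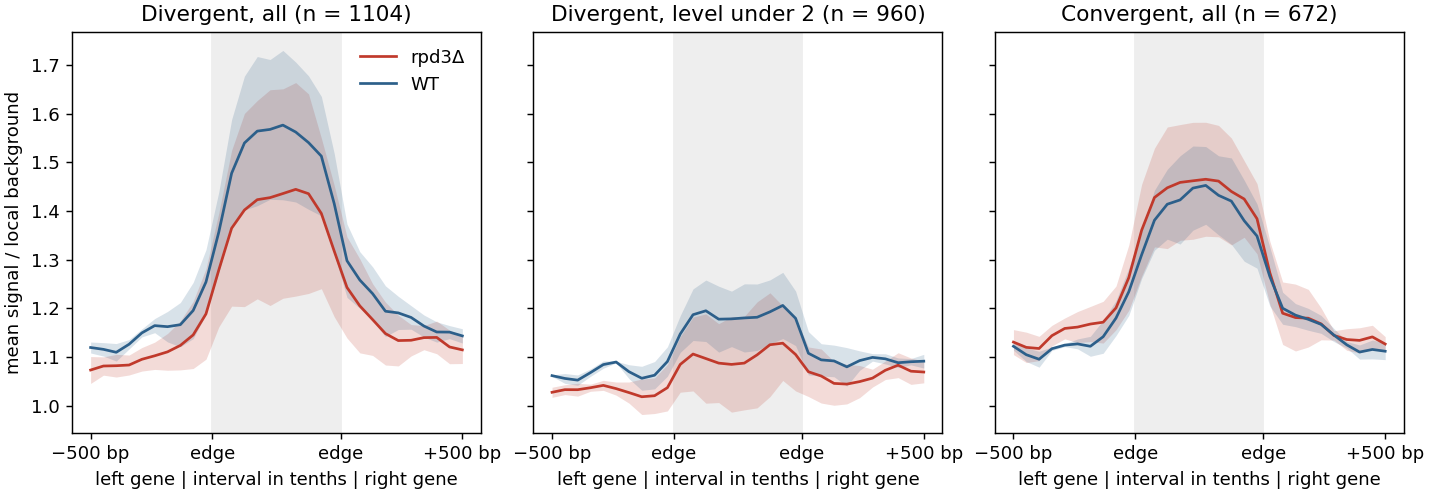
Mean signal over local background (y axis) across intervals cut into 10 equal pieces (grey) and the 500 bp beyond each edge (x axis), for all 1104 divergent intervals, the 960 under 2 times local background, and all 672 convergent intervals; lines are means of 3 sample values and bands ± 1 SD. In all divergent intervals rpd3Δ reaches 1.44 and WT 1.58 mid-interval with overlapping bands, while in convergent intervals the lines lie at 1.46 in rpd3Δ and 1.45 in WT.

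Longer divergent intervals had more signal over local background. The median was 1.06 times for 415 intervals of 200 to under 400 bp, 1.19 for 372 of 400 to under 700 bp, 1.28 for 272 of 700 to under 1500 bp and 1.47 for 45 of 1500 to 3000 bp. The share at 2 or more times local background was 8.43%, 14.2% and 17.3% in the first 3 classes, and 9 of 45 in the longest. Tandem intervals also rose with length, with medians of 1.18, 1.18, 1.32 and 1.40. Their shares were 10.9%, 12.3% and 19.6%, and 13 of 44 in the longest class. Convergent medians were 1.21, 1.19, 1.27 and, over only 5 intervals, 0.978. The Spearman correlation of level and length across intervals was 0.274, as a description. At the lower length limit, YAR035C-A/SWH1 (201 bp) had 1.12 times local background just inside and KRE29/FMP49 (198 bp) 1.201 times just outside, and at the upper limit TIR2/AUS1 (2728 bp) had 1.88 times inside and HPF1/ZPS1 (3051 bp) 3.40 times outside.

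Summed over all their bins, divergent intervals did not differ between genotypes beyond the spread of the samples. Their mean bin was 1.35, 1.198 and 1.15 times the mean bin of the 15 chromosomes in the rpd3Δ samples, against 1.32, 1.34 and 1.201 in the WT samples. Here rpd3Δ sample 1 was the highest of all 6 and the genotypes overlapped. The means were 1.23 ± 0.107 in rpd3Δ and 1.29 ± 0.0736 in WT (SD, n = 3 each), a difference of -0.05 (two-sided exact permutation p = 0.6, where 3 samples against 3 cannot go below 0.1). The intervals thus held 6.89% to 8.13% of the signal of these chromosomes in rpd3Δ and 7.23% to 8.05% in WT, on 6.02% of the bins.

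Set against convergent intervals of the same length and position limits, the divergent ones stood lower in rpd3Δ than in WT, though not beyond the spread of the samples. The log2 ratio of divergent to convergent mean signal was 0.10, -0.04 and -0.05 in the rpd3Δ samples, against 0.17, 0.17 and 0.09 in the WT samples. Samples 2 and 3 of rpd3Δ lay under all WT samples, while rpd3Δ sample 1 lay between WT samples. The means were 0.00 in rpd3Δ and 0.14 in WT, a difference of -0.14 (two-sided exact permutation p = 0.2, Benjamini-Hochberg adjusted p = 0.333 over 5 tests of the family). Without rpd3Δ sample 1, the only rpd3Δ sample that overlapped WT, the difference was -0.19. Leaving out the overlapping sample separates the genotypes by construction, so this value is a description and no test. With rpd3Δ sample 2 or 3 left out instead, the genotypes still overlapped, because rpd3Δ sample 1 lay above WT sample 3.

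The convergent intervals had 1.23 ± 0.0375 times the mean bin in rpd3Δ and 1.16 ± 0.0316 in WT (SD, n = 3 each), and the tandem intervals 1.25 ± 0.0909 in rpd3Δ and 1.28 ± 0.0666 in WT. The log2 ratio of divergent to tandem signal differed by -0.03 between rpd3Δ and WT (exact permutation p = 0.2, adjusted p = 0.333). Over all 6 samples, divergent signal was above convergent by a mean log2 ratio of 0.07 (two-sided exact sign-flip permutation p = 0.125, adjusted p = 0.333), but by -0.058 when each class was taken by the median of its intervals. By the mean it differed from tandem by -0.01 (exact sign-flip permutation p = 0.438, adjusted p = 0.547). By the mean, the sign changed with length: the mean log2 ratio to convergent intervals was -0.13 at 200 to under 400 bp and 0.14 at 700 to under 1500 bp (exact sign-flip permutation p = 0.03125 each, the smallest that 6 samples allow, unadjusted). This p measures agreement between libraries that read the same intervals, not the spread between intervals. Median levels over local background were 1.06 in divergent and 1.21 in convergent intervals of the shorter class. In the longer class they were 1.28 and 1.27. The convergent class holds only 40 intervals of 700 to under 1500 bp and 5 of 1500 to 3000 bp.

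**Figure D3:**
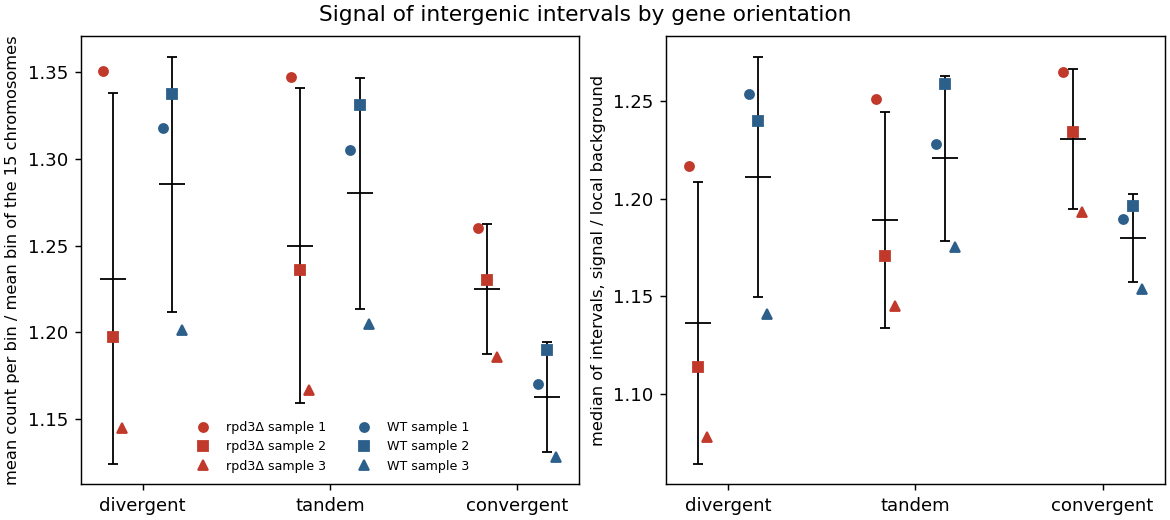
Mean count per bin over the mean bin of the 15 chromosomes (left y axis) and median interval signal over local background (right y axis) for divergent, tandem and convergent intervals in each sample; symbols are samples, bars the mean and ± 1 SD of 3, and the y axes do not start at 0. In divergent intervals rpd3Δ averages 1.23 and WT 1.29 on the left scale with overlapping samples, while in convergent intervals rpd3Δ averages 1.23 and WT 1.16.

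Interval by interval, the fold changes between genotypes were small and more often negative than positive. The median log2 fold change over the 1103 tested divergent intervals was -0.09 (interquartile range -0.25 to 0.07), and it was -0.04 (-0.23 to 0.15) over all 6063 intergenic intervals tested. Other settings gave divergent medians from -0.13 to -0.04, and the per-sample medians of log2 signal had a replicate SD of 0.0749. The median was -0.05 in tandem and 0.07 in convergent intervals. Values were negative at 65.0% of divergent, 57.6% of tandem and 40.4% of convergent intervals. By length the divergent medians were -0.08, -0.08, -0.11 and -0.17 from the shortest to the longest class. Over the same classes they were -0.03, -0.04, -0.10 and -0.16 in tandem intervals. In convergent intervals they were 0.07, 0.11, -0.005 and, over only 5 intervals, -0.18. By level the median was -0.16 over the 32 intervals at 4 or more times local background, 29 of them negative, -0.08 over the 112 at 2 to under 4 times, 78 of them negative, and -0.09 over the 959 tested under 2. At 4 or more times it was also -0.16 over 57 tandem intervals, 40 of them negative, and -0.07 over 12 convergent ones, 7 of them negative. Values were negative at 74.3% of the 144 divergent intervals at 2 or more times and at 63.6% of the other divergent ones, a description with no test. Separation of the samples went the other way. Every rpd3Δ sample lay below every WT sample at 10 of these 144 (6.94%) and at 111 of the other 959 (11.6%). Across divergent intervals, level and fold change had a Spearman correlation of -0.01.

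The medians differed more by chromosome. They were -0.29 on chromosome I (17 intervals), -0.23 on VIII (50), -0.22 on VI (19), -0.20 on III and on IX (23 and 42), and between -0.14 and -0.03 on the other 10 chromosomes. The local background differed in the same direction on all 5 of these, with a median log2 ratio of rpd3Δ to WT of -0.14 beside the intervals of chromosome I, -0.11 on VIII, -0.17 on VI, -0.02 on III and -0.04 on IX. It was also negative on XI, at -0.03. On the rest the ratio was positive, from 0.01 on X to 0.07 on IV, although the interval medians there were negative too. Intervals 30 to 50 kb from a chromosome end had a median of -0.14 (53 intervals) and a local background ratio of -0.07, and those over 400 kb from an end had -0.09 (180 intervals) and 0.04. The part of the local background in these medians was not tested.

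With p-values of edgeR's quasi-likelihood test adjusted by Benjamini-Hochberg over all 6063 intergenic intervals, and a limit of 0.05, 12 of 1103 divergent intervals (1.09%) were lower in rpd3Δ, beside 91 of all intervals (1.5%). Higher in rpd3Δ was 1 divergent interval (0.0907%), beside 38 of all (0.627%). The share of lower calls thus lay close to that of intergenic intervals in general. Tandem intervals had 25 lower and 4 higher calls of 2056, and convergent intervals 7 and 7 of 671. Every rpd3Δ sample lay below every WT sample at 121 divergent intervals (11%), beside 10.7% of all intervals, and above every WT sample at 36 (3.26%), beside 7.62% of all. The convergent intervals had 5.96% below and 13.6% above. At an unadjusted p under 0.05, 109 divergent intervals were lower and 16 higher. The matching counts over all 6063 intervals were not made, nor those of the other fits below. Counts at an unadjusted p therefore cannot be read against a background share. The gene lists below are set beside divergent intervals only.

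The number of lower calls turned on single samples. It was 0 without WT sample 1, 0 without WT sample 2, 0 without rpd3Δ sample 2, 5 without rpd3Δ sample 3, 15 without WT sample 3 and 48 without rpd3Δ sample 1. Calls over all intergenic intervals, both directions together, moved too. They were 20 of 6056, 25 of 6036, 9 of 6069, 107 of 6074, 130 of 6076 and 268 of 6058 in that order. With all samples they were 129 of 6063. At an unadjusted p under 0.05 the fits with 0 lower calls had 64, 73 and 77 lower divergent intervals in the order given, beside 109 with all samples. With WT samples 1 and 2 pooled as 1 sample the number of lower divergent calls was 0, with 65 at an unadjusted p under 0.05. Over all intervals that fit gave 29 calls of 6104. With each sample's local background as an offset 0 divergent intervals passed in either direction, beside 12 of all 6059 intervals. In that fit 77 divergent intervals were lower and 6 higher at an unadjusted p under 0.05. DESeq2 without the offset gave 10 lower and 1 higher, beside 126 calls over all 6063 intervals.

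The 1 interval that rose was that between PHO5, the secreted acid phosphatase induced when phosphate is scarce and a long-studied model of promoter chromatin, and PBY1, which encodes a protein found with P-bodies (PHO5/PBY1, chromosome II, 430952 to 432035). It had 25.6, 18.9 and 20.7 scaled counts per bin in the rpd3Δ samples, against 12.3, 12.7 and 12.1 in the WT samples. Every rpd3Δ sample lay above every WT sample, and the WT samples were close together. The log2 fold change was 0.81 (SE 0.159, edgeR quasi-likelihood adjusted p = 0.00325). Over local background the interval had 2.37 ± 0.389 times in rpd3Δ and 1.40 ± 0.0360 in WT (SD, n = 3 each), and with local background as an offset the log2 fold change was 0.76 (edgeR adjusted p = 0.0639). Without WT sample 1 it was 0.81 (edgeR adjusted p = 0.0632), and the call was kept in the other 5 fits that left out 1 sample.

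The difference at PHO5/PBY1 was larger on the PHO5 side. Cut at its midpoint, the interval had 27.5 ± 4.36 scaled counts per bin next to PHO5 in rpd3Δ and 12.5 ± 0.857 in WT, and 16.02 ± 2.86 next to PBY1 in rpd3Δ and 12.3 ± 0.796 in WT (SD, n = 3 each). The log2 ratios of these means were 1.14 and 0.38, and the samples did not overlap on either side. The first 500 bp inside PHO5 had 33.0, 25.6 and 26.8 in the rpd3Δ samples, against 12.2, 11.1 and 11.6 in the WT samples, a log2 ratio of 1.29 with no overlap. Inside PBY1 the values were 8.21 ± 2.55 in rpd3Δ and 7.46 ± 1.73 in WT, within the spread of the samples. The raised signal therefore ran on from the promoter into the PHO5 coding sequence, with its highest interval bin 24 bp from the PHO5 start. PHO5 has a close relative next to it, PHO3, so reads in shared coding sequence are uncertain as to copy.

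The other 4 divergent intervals with positive fold changes and the smallest p did not pass the test. TAF6/NSA1, beside genes of a TFIID subunit and a ribosome assembly factor, had 11.3, 13.7 and 8.12 scaled counts per bin in the rpd3Δ samples, against 8.22, 6.59 and 5.08 in the WT samples, which overlapped (log2 fold change 0.73, edgeR adjusted p = 0.171). TMT1/YER175W-A had a log2 fold change of 0.51 (edgeR quasi-likelihood adjusted p = 0.116), DCP2/MLS1, beside genes of the mRNA decapping enzyme and of malate synthase, 0.44 (0.163) and CRC1/RAS1, beside genes of a carnitine carrier and of a Ras GTPase, 0.42 (0.176). In these last 3 every rpd3Δ sample lay above every WT sample.

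The 12 intervals that fell were 330 to 2728 bp long, with a median of 790 bp, on 8 chromosomes, and their log2 fold changes ran from -0.85 to -0.61. Only 3 of them were at 2 or more times local background. The largest of these by signal was MET5/IML1, between the gene of a sulfite reductase subunit of methionine synthesis and a gene of a TORC1-inhibiting complex (chromosome X, 683286 to 684566). It had 32.0, 27.5 and 25.5 scaled counts per bin in the rpd3Δ samples, against 49.3, 47.2 and 36.1 in the WT samples, with no overlap (log2 fold change -0.64, SE 0.178, edgeR quasi-likelihood adjusted p = 0.0417). The signal formed 1 peak inside the interval, with the highest bin 491 bp from the IML1 start and 790 bp from that of MET5. That bin had 8.15 times local background in rpd3Δ and 12.7 in WT. The 500 bp inside MET5 and IML1 had 10.2 ± 0.850 and 11.2 ± 0.826 scaled counts per bin in rpd3Δ, against 11.2 ± 1.95 and 12.8 ± 0.897 in WT.

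MYO4/FRT2, between the gene of the myosin that carries mRNA into the bud and that of an endoplasmic reticulum membrane protein (chromosome I, 92271 to 92899), had 18.4, 15.1 and 14.2 scaled counts per bin in the rpd3Δ samples, against 32.3, 27.3 and 18.9 in the WT samples. The groups did not overlap, but rpd3Δ sample 1 lay just below WT sample 3, and over local background it lay above it, at 3.49 times in rpd3Δ sample 1 and 3.41 times in WT sample 3. The log2 fold change was -0.72 (SE 0.171, edgeR adjusted p = 0.0162). RIM15/HAC1, between the gene of a kinase of nutrient limitation and that of the transcription factor of the unfolded protein response (chromosome VI, 74428 to 75178), had 20.2, 18.4 and 16.9 in the rpd3Δ samples, against 30.3, 32.1 and 22.0 in the WT samples, with no overlap. Its log2 fold change was -0.61 (SE 0.162, edgeR adjusted p = 0.0334), and the 500 bp inside HAC1 had a log2 ratio of -0.61 as well.

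The other 9 lay under 2 times local background, from 0.925 times at CMK2/IRC10 to 1.88 times at TIR2/AUS1. HXT4/AHT1, beside the hexose transporter gene HXT4 (chromosome VIII, 288812 to 289141), had the most negative of the fold changes without the offset: 7.54, 5.77 and 6.77 scaled counts per bin in the rpd3Δ samples, against 12.4, 11.4 and 12.5 in the WT samples. The groups lay far apart relative to their spread (log2 fold change -0.85, SE 0.221, edgeR quasi-likelihood adjusted p = 0.0300), and the local background there also differed, by a log2 ratio of -0.31. With local background as an offset its log2 fold change was -0.53 (edgeR adjusted p = 0.533), beside -0.74 for MYO1, described next (edgeR adjusted p = 0.347), and each of these calls was kept in 1 of 6 fits that left out 1 sample. YHR022C-A/MYO1, upstream of the myosin of the cytokinetic ring (chromosome VIII, 151307 to 151665), had 6.47, 6.66 and 4.84 in the rpd3Δ samples, against 13.3, 9.31 and 10.2 in the WT samples. The side next to MYO1 had 5.46 ± 2.09 in rpd3Δ and 12.1 ± 2.20 in WT, while the 500 bp inside MYO1 had 5.11 ± 1.68 and 5.07 ± 0.336, so the difference ended at the gene. The log2 fold change of the whole interval was -0.85 (SE 0.239, edgeR adjusted p = 0.0489; DESeq2 adjusted p = 0.0554).

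CMK2/IRC10, beside a calmodulin-dependent kinase gene (chromosome XV, 296121 to 297077), had 6.18, 3.89 and 5.62 scaled counts per bin in the rpd3Δ samples, against 9.73, 8.31 and 8.32 in the WT samples, with no overlap (log2 fold change -0.75, edgeR adjusted p = 0.0162). Here the 500 bp inside both genes were lower as well, by log2 ratios of -0.70 in CMK2 and -0.84 in IRC10, and the local background by -0.28. With local background as an offset the log2 fold change was -0.45 (edgeR adjusted p = 0.558). SRP40/PTR2, beside the gene of the peptide transporter Ptr2 (chromosome XI, 613886 to 615729), had 10.1, 8.32 and 9.59 in the rpd3Δ samples, against 14.1, 16.7 and 14.6 in the WT samples. Its groups did not overlap, and its log2 fold change was -0.70 (edgeR adjusted p = 0.0133), the smallest p among those that fell. TIR2/AUS1, between a cell wall mannoprotein gene and a sterol importer gene and the longest of the 1104 intervals (chromosome XV, 346951 to 349678), had 9.74, 10.1 and 8.27 in the rpd3Δ samples, against 15.6, 15.3 and 12.8 in the WT samples. Its log2 fold change was -0.64 (edgeR adjusted p = 0.0300), and its highest bin, near the middle, had 3.10 times local background in rpd3Δ and 7.01 in WT.

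BNA1/YJR026W (chromosome X, 471672 to 472759) had 10.2, 11.8 and 9.29 scaled counts per bin in the rpd3Δ samples, against 17.5, 17.9 and 13.8 in the WT samples (log2 fold change -0.65, edgeR adjusted p = 0.0178). BNA1 acts in NAD synthesis, and YJR026W is a Gag gene of a Ty1 retrotransposon, so reads on that side are uncertain as to copy. The difference was also present inside BNA1, where 500 bp had 3.68 ± 0.217 in rpd3Δ and 7.73 ± 0.481 in WT (SD, n = 3 each). LAM4/LRP1, between a sterol transport gene and a gene of an exosome cofactor (chromosome VIII, 266839 to 267537), fell mainly next to LRP1, where it had 6.60, 6.51 and 6.19 in the rpd3Δ samples, against 12.7, 15.1 and 11.8 in the WT samples. Next to LAM4 the values were 8.40 ± 2.79 in rpd3Δ and 9.87 ± 1.76 in WT. The whole interval had a log2 fold change of -0.64 (edgeR quasi-likelihood adjusted p = 0.0367; DESeq2 adjusted p = 0.0597). The local background there differed by a log2 ratio of -0.21, and with it as an offset the fold change was -0.41 on the log2 scale (edgeR adjusted p = 0.575). LGE1/LEE1, beside a gene needed for ubiquitination of histone H2B (chromosome XVI, 454991 to 455758), had a log2 fold change of -0.71 (edgeR quasi-likelihood adjusted p = 0.0170), and YDL012C/GRX6, beside a glutaredoxin gene (chromosome IV, 431518 to 432329), had -0.62 (edgeR adjusted p = 0.0239).

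**Figure D4:**
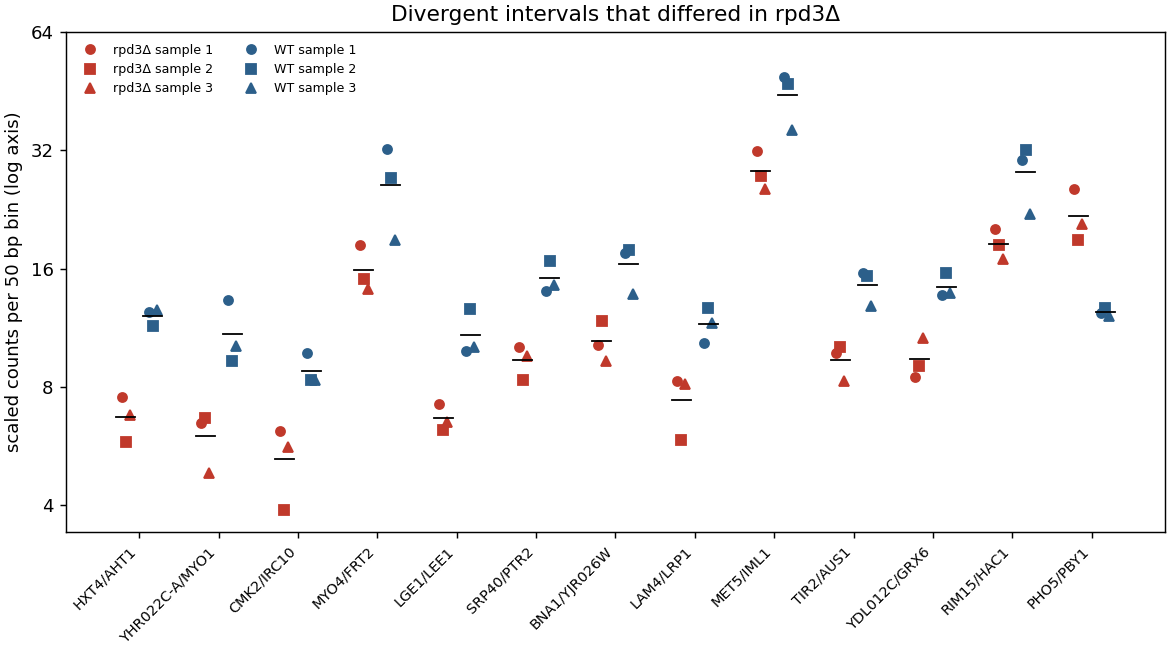
Scaled counts per 50 bp bin (y axis, log scale) in each sample for the 12 divergent intervals lower and the 1 higher in rpd3Δ, ordered by fold change; symbols are samples and bars the mean of 3. In each of the 12 every rpd3Δ sample lies below every WT sample, and at PHO5/PBY1 the rpd3Δ samples, at 18.9 to 25.6, lie above the WT samples, at 12.1 to 12.7.

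Among these 12, both sides of the interval had lower means in rpd3Δ at 12 of 12, and the 500 bp beyond both edges at 10 of 12. The local background was lower in rpd3Δ at 11 of 12, by log2 ratios between -0.31 and 0.05. Over local background the groups did not overlap at 8 of 12. The other 4 were CMK2/IRC10, MYO4/FRT2, LAM4/LRP1 and RIM15/HAC1. Because the 12 were chosen by this same contrast, these counts describe them and are no further test.

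Histone gene pairs are classic divergent promoters, 1 interval serving both genes of a dimer. All 4 pairs were members, together with HTZ1/PLB3 and HHO1/NAN1, and 0 of the 6 intervals passed by edgeR's test in either direction, with 2 at an unadjusted p under 0.05 and a median log2 fold change of -0.09. At that unadjusted limit, 109 of all 1103 tested divergent intervals were lower and 16 higher. DESeq2 called 0 intervals in each of the 12 lists with a member except the phosphate genes, where it called 1. HHF1/HHT1, which serves a pair of H4 and H3 genes (chromosome II, 255685 to 256330), came closest, with 19.7, 19.1 and 15.4 scaled counts per bin in the rpd3Δ samples, against 27.6, 30.2 and 22.2 in the WT samples. The groups did not overlap, but the log2 fold change of -0.56 had an edgeR adjusted p of 0.0509. Its signal was higher towards HHF1. The 500 bp beyond the HHF1 start, which run past the end of that 312 bp gene, had 81.0, 66.3 and 60.9 in the rpd3Δ samples, against 121, 117 and 83.6 in the WT samples, so most of the signal there lay outside the interval. Beyond the HHT1 start, 500 bp had 7.45, 11.8 and 7.18 in the rpd3Δ samples, against 15.2, 13.2 and 13.7 in the WT samples. The fall was thus not confined to the interval, with log2 ratios of -0.63 on the HHF1 side and -0.67 on the HHT1 side. HTA2/HTB2 had -0.35 on the log2 scale (edgeR adjusted p = 0.340), HTB1/HTA1 one of -0.10 and HHT2/HHF2 one of 0.00. Histone pairs are near-identical copies in their coding sequence, so flanking values are uncertain as to copy.

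**Figure D5:**
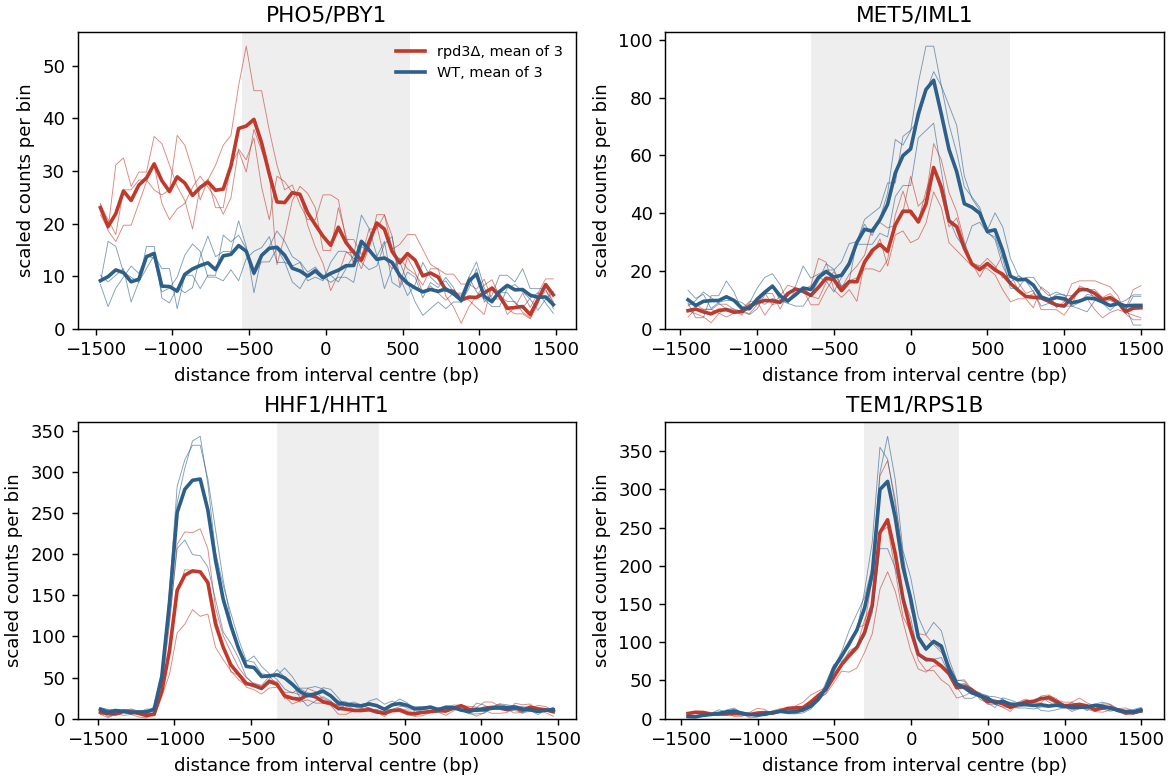
Scaled counts per 50 bp bin (y axis) against distance from the interval centre in bp (x axis) at 4 divergent intervals (grey); thick lines are means of 3 samples and thin lines single samples. At PHO5/PBY1 rpd3Δ lies above WT, most on the PHO5 side and into the gene, at MET5/IML1 and HHF1/HHT1 rpd3Δ lies below WT over the peak, which for HHF1/HHT1 is outside the interval, and at TEM1/RPS1B single samples of the genotypes overlap.

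Genes of the cell cycle were looked at next, in cells that the arrest holds in G1. Their lists were chosen with earlier results of these data known. The CLB2 cluster, genes of late cell cycle known to be bound by forkhead proteins, had 9 divergent intervals, of which 1 (MYO1, above) was lower and 0 higher by edgeR's test, a call kept in 1 of 6 fits that left out 1 sample. Of the 9, 3 had an unadjusted p under 0.05, beside 109 lower ones among all 1103 tested divergent intervals, and DESeq2 called 0. All 9 had negative fold changes, with a median of -0.23 beside -0.09 for all divergent intervals, of which 65.0% were negative. Those at PFK26/MOB1 (-0.01), SWI5/EKI1 (-0.02) and AHC1/HST3 (-0.07) were close to no change. DCC1/BUD3, beside a bud site gene, had the highest level of them, 4.58 ± 1.53 times local background in rpd3Δ and 4.96 ± 0.997 in WT (SD, n = 3 each). JSN1/BUD4 had 3.45 ± 0.983 in rpd3Δ and 4.74 ± 0.972 in WT (log2 fold change -0.53, edgeR adjusted p = 0.0873), and MTC6/SPO12, beside a gene of mitotic exit, 2.97 ± 0.562 and 4.03 ± 0.531 (-0.47, edgeR adjusted p = 0.127). SWI5/EKI1, beside the gene of a late-mitotic transcription factor, had 1.56 ± 0.316 in rpd3Δ and 1.75 ± 0.303 in WT. A uniform negative sign was not particular to this list. All 6 intervals of glycolysis and fermentation genes were negative too, beside 28 of 54 of ribosomal protein genes.

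The mitotic exit genes had 6 divergent intervals with a median level of 2.74 times local background, 5 of them at 2 or more, beside 13.0% of all divergent intervals. This level is a description, because the list was chosen with earlier results of these data known. MTC6/SPO12 and PFK26/MOB1 are also members of the CLB2 cluster list. By edgeR's test 0 of the 6 passed, 1 had an unadjusted p under 0.05 (MTC6/SPO12), and the median log2 fold change was -0.08. Besides TEM1/RPS1B and MTC6/SPO12 they included ICS2/AMN1, with 3.17 ± 0.417 times in rpd3Δ and 3.45 ± 0.525 in WT, and NDD1/NUD1, with 2.19 ± 0.719 and 2.17 ± 0.412. The G1/S genes, which are read out after Start, had 7 intervals with a median level of 0.942 and 0 at 2 or more. Their median log2 fold change was -0.05, and 0 passed edgeR's test, with 1 at an unadjusted p under 0.05. CDC21/UFE1, beside the thymidylate synthase gene, had the most negative value, -0.63 (edgeR adjusted p = 0.182), and YIF1/POL2, beside the gene of DNA polymerase epsilon, the most positive, 0.43 (edgeR adjusted p = 0.379). The M/G1 and pre-replication complex genes had 7 intervals, 0 edgeR calls, 0 at an unadjusted p under 0.05 and a median of -0.12, with the highest level at ORC6/SET1, 2.94 ± 0.601 times in rpd3Δ and 2.72 ± 0.601 in WT.

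Genes that respond to α-factor had 7 divergent intervals, 3 of them at 2 or more times local background. Their median log2 fold change was -0.34, the most negative of the lists, with 6 of 7 negative, 0 past edgeR's test and 4 at an unadjusted p under 0.05, all 4 negative. Of all 1103 tested divergent intervals, 109 were lower at an unadjusted p under 0.05 and 65.0% had negative values. VTI1/CIK1, beside the gene of a kinesin partner needed in mating, had 34.1, 25.0 and 23.6 scaled counts per bin in the rpd3Δ samples, against 36.4, 37.0 and 31.3 in the WT samples, which overlapped (log2 fold change -0.34, edgeR adjusted p = 0.322). PRM6/PRP39 had -0.40 (edgeR adjusted p = 0.291), PEP1/FUS3, beside the gene of the mating MAP kinase, -0.37 (edgeR adjusted p = 0.293), and GYP8/STE2, beside the α-factor receptor gene, -0.35 (edgeR adjusted p = 0.293). The exception in sign was ERG24/PRM1, with 0.14.

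Targets of Ume6, the repressor that brings Rpd3 to early meiotic genes, had 7 divergent intervals, of which 0 passed by edgeR's test in either direction and 0 had an unadjusted p under 0.05. Of the 7, 4 were negative, and the median was -0.02. DPP1/ZIP1 had the highest level, 1.96 ± 0.375 times local background in rpd3Δ and 2.04 ± 0.316 in WT (SD, n = 3 each). ARD1/SPO13 had 0.682 ± 0.104 in rpd3Δ and 0.786 ± 0.0710 in WT, and YJL107C/IME2, beside the gene of a meiotic kinase, 1.25 ± 0.188 and 1.43 ± 0.102. The genes of Rpd3's own partners and of other deacetylases had 10 intervals with a median of -0.15, of which 0 passed edgeR's test, 1 had an unadjusted p under 0.05 and 9 were negative. SDD2/RCO1, beside a subunit gene of the smaller Rpd3 complex, had -0.48 (edgeR adjusted p = 0.194) and RVB1/HST4 -0.47 (edgeR adjusted p = 0.345), while UME6/MSS4 had 0.03.

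The phosphate genes had 5 divergent intervals, and PHO5/PBY1 was the only 1 of them called. PHO81/YHB1, beside the gene of the inhibitor that signals low phosphate, had 1.53 ± 0.280 times local background in rpd3Δ and 1.72 ± 0.271 in WT (log2 fold change -0.11). TDA2/VTC1 had -0.14, VTC3/CTF19 -0.09 and SPL2/ARO9 -0.01. Heat shock and chaperone genes had 7 intervals with a median of -0.22 and glycolysis and fermentation genes 6 with -0.20, both with 0 edgeR calls, and with 1 and 0 at an unadjusted p under 0.05. Fold changes were negative at 6 of 7 and at 6 of 6. SSA1/EFB1, beside an Hsp70 gene, had 1.65 ± 0.115 times local background in rpd3Δ and 2.11 ± 0.155 in WT (-0.38, edgeR adjusted p = 0.249), and CYC3/CDC19, upstream of pyruvate kinase, 3.19 ± 0.692 and 3.15 ± 0.539 (-0.24, edgeR adjusted p = 0.622). The galactose genes had no member, since the gene table places an antisense RNA in the interval of GAL10 and GAL1.

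Ribosomal protein genes, the most numerous list, had 54 divergent intervals with a median log2 fold change of 0.00, 28 negative, 0 past edgeR's test in either direction and 3 at an unadjusted p under 0.05. Their median level was 1.51 times local background, and 10 of the 54 were at 2 or more. Besides TEM1/RPS1B and RPS22A/RPL39, RPS4A/YJR146W had 3.71 ± 1.04 times in rpd3Δ and 3.98 ± 0.818 in WT, and RPL37B/PLM2 2.70 ± 0.925 and 2.54 ± 0.299 (SD, n = 3 each). Intervals between 2 genes of the list, which holds RPL and RPS symbols, numbered 4. RPS15/RPP2A, whose other side is the gene of a ribosomal stalk protein not on the list, had 1.54 ± 0.288 times local background in rpd3Δ and 1.59 ± 0.107 in WT. RPS22A/RPL39 (chromosome X, 75303 to 75932) had 100.2, 77.2 and 65.0 scaled counts per bin in the rpd3Δ samples, against 91.4, 88.5 and 58.3 in the WT samples, which overlapped, with its highest bin 123 bp from the RPS22A start. RPL24A/RPL30 had 1.84 ± 0.121 times local background in rpd3Δ and 1.83 ± 0.0548 in WT, RPS16B/RPL13A 1.69 ± 0.313 and 1.65 ± 0.437, and RPL13B/RPS16A 1.46 ± 0.107 and 1.32 ± 0.151. Most ribosomal protein genes have a near-identical copy elsewhere, so values that reach into coding sequence are uncertain as to copy.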

How the data were processed

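The deposited values are whole-number counts of reads per 50 bp bin, 1 table per sample, with no normalization. The submitters' processing notes name the R64 build and the tools Bowtie2, SAMtools and bedtools. Not given in the sources used here are their versions and how multiply mapping reads were handled. Cultures were cross-linked with 1% formaldehyde, per the labels' protocols. No input library was used here.

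Intervals lie between neighbouring genes of the RefSeq R64 table, with strand read from locus tags and intervals holding a non-coding gene left out. The deposited counts of bins with their midpoint inside were summed. All intergenic intervals outside the rDNA with a mean of at least 10 counts were fitted together with edgeR 4.0.16 (glmQLFit, glmQLFTest, R 4.3.3) without covariates, with Benjamini-Hochberg adjustment at 0.05. Library sizes came from TMM over 1192 bins of 10 kb outside the rDNA. Scaled counts are counts per bin divided by the library size and multiplied by its mean. The standard error of a log2 fold change is its size divided by the root of the F statistic. DESeq2 1.42.0 was an alternative test; Python 3.11.15, pandas 2.3.3 and scipy 1.17.1 made the tables. The scripts were tested on simulated data.

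Named were up to 10 lower and 10 higher intervals past the threshold, by size of fold change (up to 5 by smallest p where fewer passed), the 10 with the highest signal, the highest of each of 13 gene lists and intervals with both genes in a list; others were chosen after their values were seen. Members and lists were chosen with earlier results of these data known. WT samples 1 and 2 were the closest pair (chi-square per degree of freedom 3.07 over the 10 kb bins, inflated by reads counted in neighbouring bins), but differed in rDNA share, at 43.3% and 37.1%, and were counted as 2 samples. Sequence motifs were not analysed here.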

Additional observations from a re-analysis of the deposited data

How the results depend on the processing

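Other scalings, DESeq2, no filter, bins wholly inside the intervals and other length, end and non-coding gene rules gave 8 to 13 lower calls and 1 higher. Over all intervals, calls in both directions ran from 99 of 5862 to 179 of 6063 in these fits. The local background offset gave 0 lower and 0 higher, WT samples 1 and 2 pooled as 1 gave 0 lower, and leaving out 1 sample gave 0 to 48 lower and 0 to 2 higher. Over all intervals these gave 12, 29 and 9 to 268 calls. PHO5/PBY1 stayed called in 5 of 6 such fits; it was lost without WT sample 1. The median log2 fold change ran from -0.13 to -0.04. The replicate numbers did not pair the samples (correlations 0.29, -0.17 and 0.44). A replicate block gave 34 lower calls and 1 higher, beside 289 calls over all 6063 intervals. The mean log2 ratio of divergent to convergent signal was -0.058 by the median of the intervals, -0.13 at 200 to under 400 bp, -0.046 at 400 to under 700 bp, 0.14 at 700 to under 1500 bp and 0.64 at 1500 to 3000 bp, where its difference between rpd3Δ and WT was 0.00858; the cause was not tested. Of the 44 named intervals, called ones never changed sign. Depth of 7 to 12 counts per median bin limits what short intervals can show.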
